A study of Mus musculus with 12 samples.

Results

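Levels of 8 acute-phase genes that are known targets of the transcription factor STAT3 were examined in mouse colorectal tumors. They are Osmr, Lrg1, Lcn2, Saa2, Saa3, Hp, Bcl3 and Pim1, taken by symbol from the annotation of the array, which named 22180 genes through a probe set with a single symbol. All 8 had such a probe set. A gene with several was read from the one with the highest mean over the 12 arrays, which concerned Pim1. A filter on dim genes, which left out the 25% of genes with the lowest mean, kept 16635 genes and 7 of the 8. Saa2 fell below it, so its values are given but were not tested with the others.

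The tumors arose after azoxymethane, which damages DNA, and dextran sulfate sodium, which injures the colon lining and causes colitis. All 4 groups share this treatment. Stat3wt mice are wild type, and in Stat3dm mice Stat3 is conditionally deleted from myeloid cells, the lineage of macrophages and neutrophils. Tumor and stroma were cut apart by laser-capture microdissection from paraffin-embedded tissue, and each of the 4 combinations of genotype and tissue has 3 samples, each from 2 pooled tumors of 1 mouse. The study asked which changes in the stroma depend on myeloid STAT3. What drives the deletion, and the strain, sex and age of the mice, are not given in the labels. The labels also do not say whether the tumor and stroma samples with the same number come from 1 mouse, and p-values measure the spread between these samples. Stat3 itself did not separate the genotypes and so gave no check of the labels. Only myeloid cells carry the deletion, and the reason for the similar levels was not tested. The log2 level of Stat3 averaged 7.35 ± 0.65 (SD, n = 3) in Stat3wt stroma and 7.36 ± 0.04 in Stat3dm stroma. It averaged 7.71 ± 0.44 and 7.44 ± 0.47 in the tumors of these genotypes.

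As background, cytokines of the interleukin 6 family bind receptors that share the subunit gp130. Janus kinases at gp130 phosphorylate STAT3, which enters the nucleus and switches on target genes, often together with C/EBP and NF-kB factors. In the liver this gives the acute-phase response, a rise of secreted defence proteins in the blood, and inflamed colon epithelium, macrophages and neutrophils make several of the same proteins. Osmr is the receptor chain for oncostatin M. Lrg1, Lcn2, Saa2, Saa3 and Hp are secreted proteins. Bcl3 and Pim1 act inside the cell, Bcl3 as a nuclear partner of NF-kB subunits and Pim1 as a serine/threonine kinase.

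The promoters of the genes, taken as the 250 bases before the start site in a RefSeq table of build GRCm38.p6, were searched for 4 motifs on both strands. The table held an entry for 7 of the 8 genes, and 2 entries for Pim1. The STAT motif TTCNNNGAA occurred in 0 of the 7 genes and in 7.02% of the 32851 promoters of the table. The C/EBP motif TTGCNNAA occurred in 3, namely Lcn2, Saa2 and Saa3, and in 9.564% of all promoters. A loose form of the NF-kB motif, GGG, any 3 bases and TTCC, occurred in Lrg1, as GGGCTCTTCC, and in 4.648% of all promoters. It allows more letters than NF-kB factors are known to prefer. The stricter form with ACT in the middle, a case of the same motif, occurred in 0 of the 7 and in 0.14%. The motifs were chosen with matches of other motifs seen, and members are counted by gene but all promoters by entry. These counts and shares are therefore a description and not a test. A match is only a run of letters, and a missing match says only that these letters are not in this window. The 4 promoters that hold a match are printed 5′ to 3′ on the strand of the gene, with the matched letters in capitals. They show which of the searched letters lie next to the secreted members.
Saa3 (chr7:46715677-46715926, minus strand, C/EBP motif read on the opposite strand of the gene, its first printed base at -99 from the start site)
Saa3: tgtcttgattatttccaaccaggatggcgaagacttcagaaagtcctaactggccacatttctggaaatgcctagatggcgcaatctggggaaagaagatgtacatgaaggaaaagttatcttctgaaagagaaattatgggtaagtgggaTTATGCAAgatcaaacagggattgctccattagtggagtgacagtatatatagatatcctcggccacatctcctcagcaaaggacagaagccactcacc
Saa2 (chr7:46751583-46751832, plus strand, C/EBP motif at -183)
Saa2: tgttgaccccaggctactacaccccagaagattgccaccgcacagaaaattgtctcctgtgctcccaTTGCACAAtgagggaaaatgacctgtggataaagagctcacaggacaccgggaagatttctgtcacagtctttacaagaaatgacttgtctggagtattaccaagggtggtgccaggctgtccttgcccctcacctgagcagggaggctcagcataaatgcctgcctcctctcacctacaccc
Lcn2 (chr2:32387740-32387989, minus strand, C/EBP motif at -216)
Lcn2: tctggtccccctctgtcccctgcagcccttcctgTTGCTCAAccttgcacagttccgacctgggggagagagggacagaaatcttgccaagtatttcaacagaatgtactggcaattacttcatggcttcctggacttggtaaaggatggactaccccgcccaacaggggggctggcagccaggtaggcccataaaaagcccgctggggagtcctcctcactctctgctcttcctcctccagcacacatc
Lrg1 (chr17:56121947-56122196, minus strand, loose form of the NF-kB motif at -34)
Lrg1: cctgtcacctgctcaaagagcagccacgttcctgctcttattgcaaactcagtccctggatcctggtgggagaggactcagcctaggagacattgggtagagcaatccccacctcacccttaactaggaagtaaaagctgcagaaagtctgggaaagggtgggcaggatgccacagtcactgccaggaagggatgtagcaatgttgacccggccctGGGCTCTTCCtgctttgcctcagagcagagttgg
In the same RefSeq table Saa3 and Saa2 lie near each other on chromosome 7, at 46711998 to 46719615 and 46751833 to 46754313. The start site used for the Saa3 promoter lies inside that span. Hp lies on chromosome 8 from 109575128 to 109579172, Osmr on chromosome 15 from 6813568 to 6874968, Bcl3 on chromosome 7 from 19808462 to 19822824 and Pim1 on chromosome 17 from 29490785 to 29496111. Lrg1 spans 56119678 to 56121946 on chromosome 17, and Lcn2 spans 32384637 to 32387739 on chromosome 2. No build is given for the array values.

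All levels below are log2 RMA signals, the values as deposited. RMA (robust multi-array average) summarises the probes of a probe set on the log2 scale, and a difference of 1 is a doubling of signal. A level of 1 gene cannot be set against that of another, because probe sets differ in brightness. Values of a group are listed in the order of sample numbers 1, 2 and 3, which are names and not a series. The 12 arrays had medians between 4.20 and 4.43. The SD of the values of an array ran from 1.60 to 1.91, and in each of the 4 groups the array of sample number 3 had the largest.

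**Figure D1:**
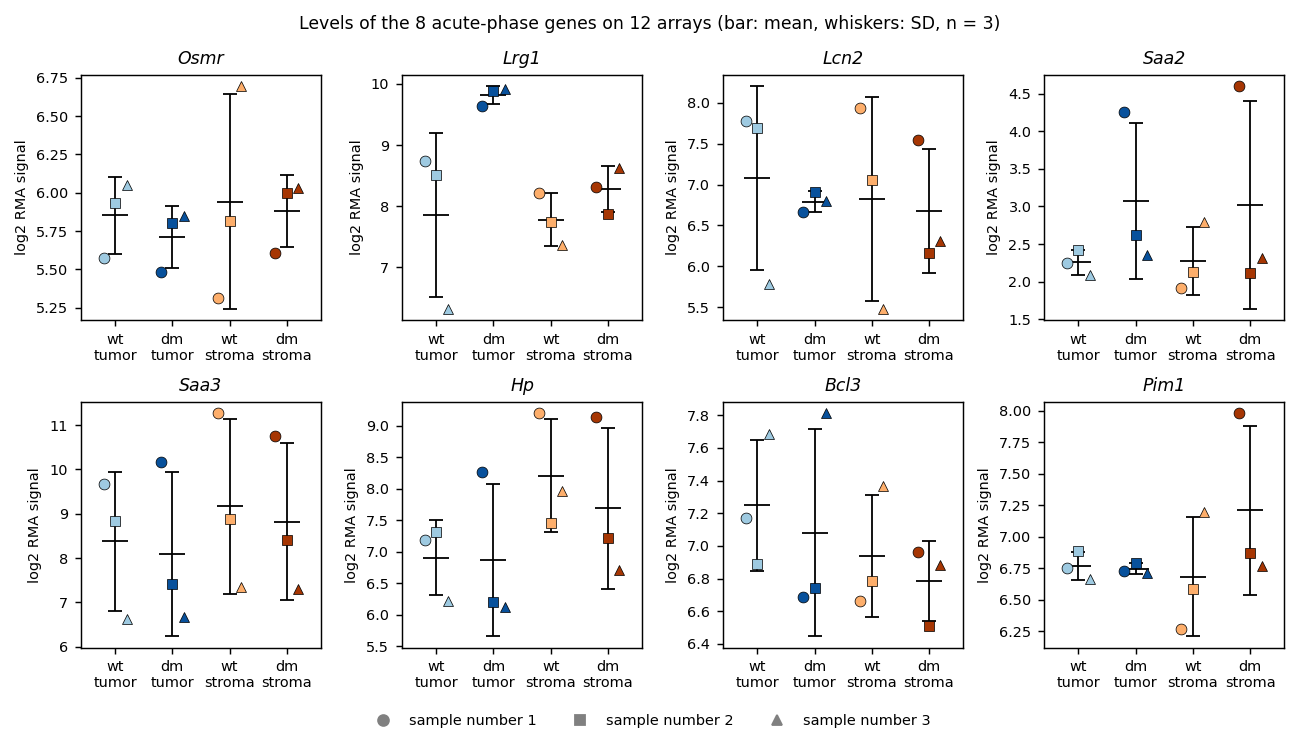
Log2 RMA signal of each of the 8 genes on the 12 arrays, by genotype (wt, Stat3wt; dm, Stat3dm) and tissue, with a marker shape for each sample number, a bar for the mean and whiskers for the SD (n = 3); the vertical scales differ between genes. The 3 Stat3dm tumors lie between 9.64 and 9.92 for Lrg1, above all other arrays, and among the other genes only Hp, between the Stat3wt tissues, has groups that do not overlap in the comparisons by genotype or by tissue.

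Lrg1 encodes leucine-rich alpha-2-glycoprotein, a secreted protein known to modify TGF-beta signalling in blood vessels. It was read at 8.74, 8.51 and 6.31 in Stat3wt tumors and at 9.64, 9.89 and 9.92 in Stat3dm tumors. In Stat3wt stroma the values were 8.22, 7.75 and 7.36, and in Stat3dm stroma 8.31, 7.88 and 8.63. The Stat3dm tumors were the highest of the 12 arrays and differed little among themselves, and Stat3wt tumor 3 was the lowest array. Group means were 9.82 ± 0.15 in Stat3dm tumor, 8.27 ± 0.38 in Stat3dm stroma, 7.85 ± 1.34 in Stat3wt tumor and 7.78 ± 0.43 in Stat3wt stroma (SD, n = 3). In this order the first exceeded the second by 1.54, with a 95% confidence interval of 0.53 to 2.56, and the intervals of the 2 other neighbouring differences included 0.

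Lcn2 encodes lipocalin 2, which binds bacterial iron carriers and is made by inflamed epithelium and neutrophils. Its values were 7.78, 7.69 and 5.78 in Stat3wt tumors and 6.66, 6.91 and 6.80 in Stat3dm tumors. They were 7.93, 7.06 and 5.47 in Stat3wt stroma and 7.54, 6.16 and 6.31 in Stat3dm stroma. In both Stat3wt tissues sample number 3 was the lowest, and the Stat3dm tumors lay inside the range of the Stat3wt tumors. Means ran from 7.08 ± 1.13 in Stat3wt tumor through 6.82 ± 1.24 in Stat3wt stroma and 6.79 ± 0.13 in Stat3dm tumor to 6.67 ± 0.76 in Stat3dm stroma, and no neighbouring pair had an interval without 0.

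Saa3 encodes a serum amyloid A made outside the liver, in macrophages, fat and epithelium. It was read at 9.67, 8.83 and 6.63 in Stat3wt tumors, 11.27, 8.89 and 7.35 in Stat3wt stroma, 10.17, 7.41 and 6.66 in Stat3dm tumors and 10.76, 8.41 and 7.29 in Stat3dm stroma. In all 4 groups sample number 1 was the highest and number 3 the lowest, and the groups overlapped over most of this range. The means were 9.17 ± 1.98 in Stat3wt stroma, 8.82 ± 1.77 in Stat3dm stroma, 8.38 ± 1.57 in Stat3wt tumor and 8.08 ± 1.85 in Stat3dm tumor. Neighbours in this order differed by less than their intervals.

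Saa2 encodes an acute-phase serum amyloid A known mainly from liver. Its own probe set was dim, with a mean of 2.66 over the arrays, and 92.0% of the genes had a higher mean. The 2 brightest arrays were Stat3dm stroma 1 at 4.60 and Stat3dm tumor 1 at 4.26. The other arrays ran from 1.91 (Stat3wt stroma 1) to 2.79 (Stat3wt stroma 3). With no filter on dim genes, the mean difference of Stat3dm from Stat3wt over both tissues was 0.78 with an adjusted p of 0.748.

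Hp encodes haptoglobin, which binds free haemoglobin. Its values were 7.19, 7.31 and 6.22 in Stat3wt tumors and 8.27, 6.21 and 6.13 in Stat3dm tumors. In stroma they were 9.20, 7.46 and 7.96 for Stat3wt and 9.13, 7.22 and 6.71 for Stat3dm. All 3 Stat3wt stroma samples lay above all 3 Stat3wt tumors, while the Stat3dm tissues overlapped. Means were 8.21 ± 0.90 in Stat3wt stroma, 7.69 ± 1.28 in Stat3dm stroma, 6.91 ± 0.60 in Stat3wt tumor and 6.87 ± 1.21 in Stat3dm tumor, with no interval of neighbours that left out 0.

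Osmr, the receptor chain, was read at 5.57, 5.94 and 6.05 in Stat3wt tumors, 5.48, 5.80 and 5.85 in Stat3dm tumors, 5.31, 5.81 and 6.70 in Stat3wt stroma and 5.61, 6.002 and 6.03 in Stat3dm stroma. Sample number 1 was the lowest and number 3 the highest in all 4 groups, opposite to Saa3. Its means lay between 5.71 ± 0.20 in Stat3dm tumor and 5.94 ± 0.70 in Stat3wt stroma.

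Of the genes that act inside the cell, Bcl3 was read at 7.17, 6.89 and 7.68 in Stat3wt tumors and 6.69, 6.74 and 7.81 in Stat3dm tumors. In stroma it was read at 6.67, 6.78 and 7.37 for Stat3wt and 6.97, 6.51 and 6.89 for Stat3dm. All 4 groups overlapped, with means from 6.79 ± 0.24 in Stat3dm stroma to 7.25 ± 0.40 in Stat3wt tumor. Pim1 was read at 6.75, 6.88 and 6.67 in Stat3wt tumors and 6.73, 6.79 and 6.71 in Stat3dm tumors, which overlapped within a narrow range. Its stroma values were 6.27, 6.58 and 7.19 for Stat3wt and 7.98, 6.87 and 6.77 for Stat3dm. Stat3dm stroma 1 was the highest array for Pim1, and the other 2 Stat3dm stroma samples lay inside the Stat3wt stroma range. The second probe set of Pim1 was dim, at 3.501 to 4.51.

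The comparison of genotypes in stroma answers the question of the study most directly. None of the 7 tested genes passed an adjusted p of 0.05 (limma, Benjamini-Hochberg over 16635 genes), and 0% of all genes did. At an unadjusted p under 0.05 there were 844 genes and 0 of the 7. Pim1 differed by 0.53 ± 0.30 (SE) and Lrg1 by 0.50 ± 0.47, both toward Stat3dm. Hp differed by -0.52 ± 0.65, Saa3 by -0.35 ± 1.10, Lcn2 by -0.15 ± 0.58, Bcl3 by -0.15 ± 0.31 and Osmr by -0.06 ± 0.29, each with an adjusted p of 0.999. The median of the 7 was -0.15, beside -0.02 over all genes. The Stat3wt and Stat3dm stroma samples overlapped for all 7, while 10.8% of all genes had groups that did not. The intervals were wide for the secreted genes: that of Saa3 ran from -2.71 to 2.01.

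In tumor, Lrg1 was the gene of the set that stood apart. Its mean was 1.96 ± 0.47 (SE) higher in Stat3dm, a 3.90-fold higher signal, and the groups did not overlap. Groups did not overlap in this direction for 4.05% of all genes. The unadjusted p was 0.000912, and over all genes the adjusted p was 0.254, so Lrg1 did not pass. The 3 genes that passed, 0.018% of those tested, were lower in Stat3dm and not of the set. The other 6 differed by -0.02 to -0.29, with adjusted p of 0.904 or more. Without Stat3wt tumor 3, the low array, the difference of Lrg1 was 1.19 with an adjusted p of 0.478. Stat3wt and Stat3dm tumors of the same number deviated together, and with the number as a block Lrg1 had an adjusted p of 0.0537, while 89 genes passed (0.535%). That block was fitted over all 12 arrays, among them the Stat3wt tissues and the stroma of both genotypes, which did not deviate together for every number.

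The genotype difference of Lrg1 in stroma was smaller than that in tumor by 1.47 ± 0.67 (SE). The interaction had an unadjusted p of 0.045 and an adjusted p of 0.995, and none of the 7 genes and 0% of all genes passed it (401 genes at an unadjusted p under 0.05). The genotype difference of Lrg1 is therefore not shown to differ between tissues. Averaged over both tissues, Lrg1 was 1.23 ± 0.33 higher in Stat3dm with an adjusted p of 0.162. None of the 7 passed this contrast, beside 0.283% of all genes.

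**Figure D2:**
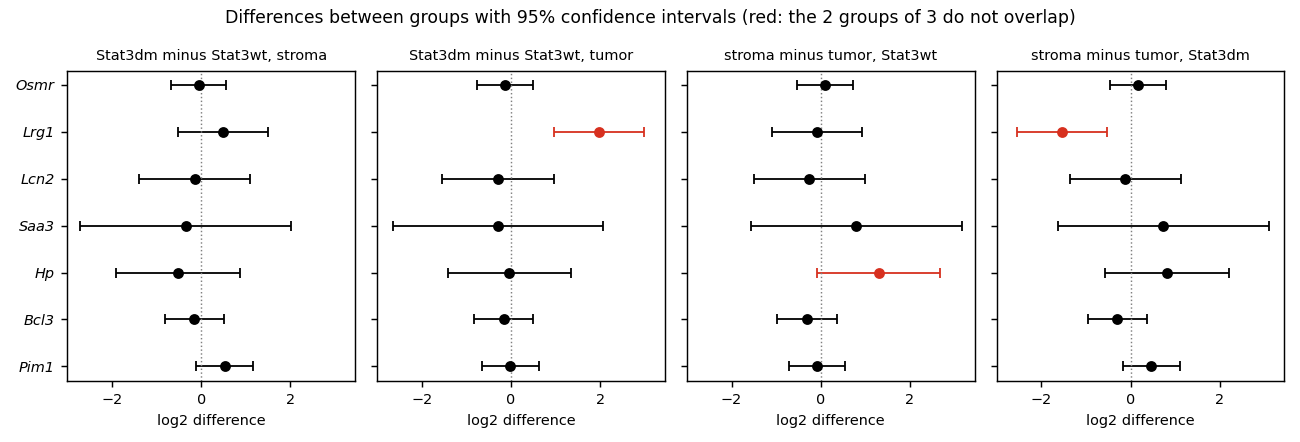
Differences between group means (log2, horizontal axis) of the 7 tested genes with 95% confidence intervals from limma, in the 4 comparisons of 2 groups; red marks genes whose 2 groups of 3 arrays do not overlap. Lrg1 in tumor, at 1.96, and between the Stat3dm tissues, at -1.54, has an interval that leaves out 0, and the red interval of Hp in Stat3wt includes it.

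Between the tissues of Stat3wt mice, Hp was 1.299 ± 0.65 (SE) higher in stroma. Its groups did not overlap, as was so in this direction for 8.88% of all genes, and its adjusted p was 0.311. Without Stat3wt stroma 1 the difference was 0.80. Saa3 was 0.80 ± 1.10 higher, Lcn2 differed by -0.26 ± 0.58 and Lrg1 by -0.08 ± 0.47. None of the 7 passed, as 0% of all genes did (2783 at an unadjusted p under 0.05). Epithelial marker genes, which mark the tumor cells, were on average lower in Stat3wt stroma (log2 mean of 18 genes 7.33 to 7.71) than in Stat3wt tumor (8.22 to 8.85), and 0 of the 18 passed in this contrast. Macrophage markers had a mean of 5.39 to 6.68 in Stat3wt stroma and 5.38 to 5.77 in Stat3wt tumor over 14 genes. The part of these cells in the Hp difference was not tested. In cut tissue, fewer cells of a type and less RNA per cell cannot be told apart.

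Between the tissues of Stat3dm mice, Lrg1 was 1.54 ± 0.47 (SE) lower in stroma, a 2.92-fold lower signal. All 3 stroma samples lay below all 3 tumors, as was so for 7.16% of all genes. The adjusted p was 0.300, and no gene of the set and 0% of all genes passed (1610 at an unadjusted p under 0.05). Stat3dm tumor and stroma samples of the same number deviated together, but so did Stat3wt tumor and Stat3dm stroma samples, which come from different mice. With each number within a genotype as a fixed block, the difference was 1.54 ± 0.30 with an adjusted p of 0.0347, a call, and 152 genes passed (0.914%). With the number alone as the block it was 0.111 (86 genes, 0.517%), and with a random block 0.101 (62 genes, 0.373%), neither a call. Hp was 0.82 ± 0.65, Saa3 0.74 ± 1.10 and Pim1 0.46 ± 0.30 higher in Stat3dm stroma, and their groups overlapped. Without Stat3dm stroma 1, the highest array of its group for all 3, the differences of Hp and Pim1 were 0.096 and 0.078, and that of Saa3 was -0.23. Epithelial markers had a mean of 8.28 to 8.92 in Stat3dm tumors and 6.94 to 8.22 in Stat3dm stroma, while macrophage markers had a mean of 5.42 to 5.60 and of 6.24 to 6.57. The part of these cells in the Lrg1 difference was not tested.

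Averaged over both genotypes, 425 genes differed between the tissues (2.55%), 141 higher and 284 lower in stroma, and none of the 7 was among them. Hp was 1.06 ± 0.46 (SE) higher in stroma with an adjusted p of 0.193, Saa3 0.77 ± 0.78 higher with 0.559, and Lrg1 0.81 ± 0.33 lower with 0.174. Sample number as a block changed these calls. The numbers met the pairing check between the Stat3dm tissues but not between the Stat3wt tissues. With the number as a fixed block Hp (adjusted p 0.0152) and Saa3 (0.0265) passed and Lrg1 (0.0846) did not, while 13.1% of all genes passed. With genotype and number as a fixed block all 3 passed, at 0.0099, 0.0191 and 0.0281, beside 11.3% of all genes. With a random block none of the 3 did, at 0.0799, 0.409 and 0.0774, beside 9.91%. Without Stat3wt tumor 3 and with no block, Lrg1 was 1.20 lower and passed, at 0.0301. The share of all genes that passed without this array is not given here. The count of all genes ranged from 0 to 1296 as single arrays were left out. Of 18 epithelial markers 8 passed, all lower in stroma.

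The secreted genes varied far more within groups than most genes. The within-group SD of Saa3, pooled over the 4 groups, was 1.80, and 0.0240% of the genes tested had a larger one. Hp had 1.03 (0.313% larger), Lcn2 0.923 (0.487%) and Lrg1 0.732 (1.298%), while the median over all genes was 0.300. Bcl3 at 0.438 (16.7% larger), Pim1 at 0.414 (20.5%) and Osmr at 0.403 (22.3%) lay closer to that median but still above it. For Saa3 this spread followed the sample number. With the number as a block it fell to 0.455, and for Hp to 0.573 and Lcn2 to 0.696, but it was 0.747 for Lrg1.

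Saa3 was highest in number 1 and lowest in number 3 in 4 of 4 groups, an order shared by 0.619% of all genes. Hp was highest in number 1 in 3 groups and lowest in number 3 in 3 groups. Osmr had the opposite order in 4 of 4 groups, as did 1.09% of all genes. Il11, a cytokine that signals through gp130, was highest in number 1 and lowest in number 3 in all 4 groups, from 6.22 in Stat3wt stroma 1 to 4.70 in Stat3wt tumor 3. Il11 was named after its values were seen. The number 3 arrays were also the widest in each group, while the order of numbers 1 and 2 by spread differed in Stat3wt tumors, where number 1 was wider (1.79 against 1.75). The block and a covariate for the spread gave different values. In the tissue mean over genotypes, Saa3 was 0.77 higher in stroma with the number as a block and 1.08 lower with the array spread as a covariate, where its adjusted p was 0.306. With this covariate, Saa3 moved from 0.80 higher to 1.82 lower in Stat3wt stroma, with an adjusted p of 0.454. Hp moved from 1.299 to 0.04 in the same comparison.

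**Figure D3:**
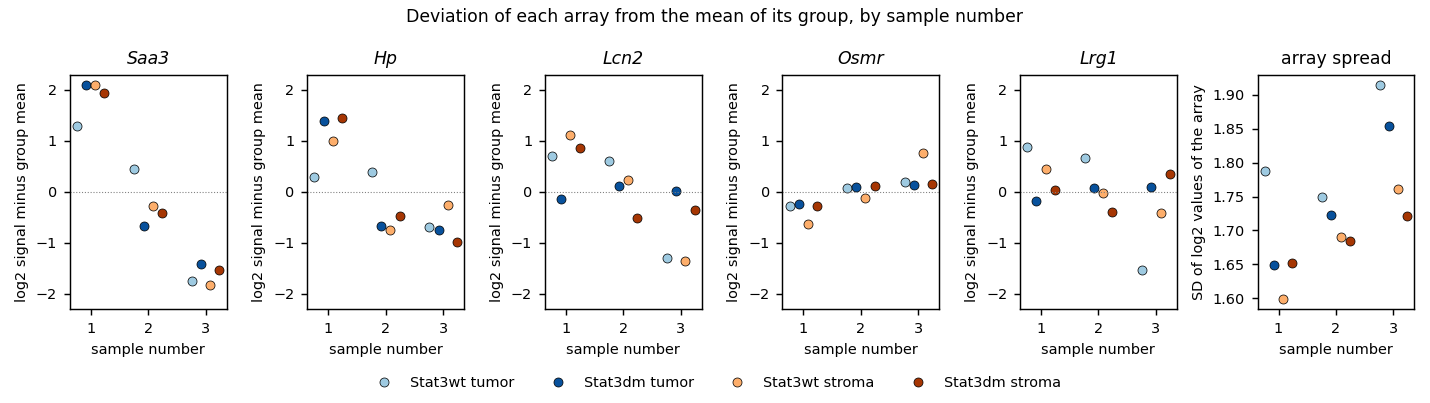
Log2 signal of 5 genes minus the mean of the group (vertical axis) for sample numbers 1, 2 and 3, with a colour for each group, and at the right the SD of all log2 values of each array. Saa3 is above its group mean in number 1 and below it in number 3 in all 4 groups, Osmr is the reverse, and the number 3 arrays are the widest, at up to 1.91.

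Stat3dm stroma 1 stood apart from the other 2 samples of its group for several genes of gp130 signalling and for the mean of 15 neutrophil markers. Some receptor chains went the other way, but not all. This array was the lowest of its group for Osmr (5.61 against 6.002 and 6.03), Il6ra (6.13 against 6.77 and 6.16) and Il10ra (6.51 against 6.84 and 6.71). It was the highest of its group for the receptor gene Csf3r (6.45 against 5.99 and 5.82). The share of all genes that were highest on this array is not given here. Il6, Osm and Socs3 were named after their values were seen. Il6, the founding gp130 cytokine, was at 4.36 in Stat3dm stroma 1, 2.16 and 2.26 in the others of the group and 2.01 to 2.69 in the other groups. Its probe set was dim, below the filter like that of Saa2, and it was not tested. Osm, the ligand of Osmr, was at 7.36, 4.83 and 4.66 in Stat3dm stroma and 4.14 to 5.28 elsewhere. Socs3, the feedback inhibitor that STAT3 induces, was at 8.25, 7.54 and 7.32 in the same samples. These 3 genes were highest in Stat3dm stroma 1 of all 12 arrays. The neutrophil genes S100a8 and S100a9 were at 11.33 and 9.73 there, against 8.69 and 8.56, and 7.01 and 6.97, in the other 2 samples. The mean of 15 neutrophil markers was 6.31 on Stat3dm stroma 1, against 5.31 and 5.16 in the others of its group. It was 4.85 to 5.39 in Stat3wt stroma, 5.29 to 5.54 in Stat3dm tumor and 4.97 to 5.34 in Stat3wt tumor. Of the markers, 13 were tested and 0 passed in any contrast. Ly6g, a defining neutrophil marker, was read at 6.999, 6.82 and 7.19 in Stat3dm stroma. Without Stat3dm stroma 1, the genotype difference in stroma was 0.14 for Pim1, 0.48 for Lrg1, 0.08 for Socs3 and -0.32 for Osm, so the Pim1 and Socs3 differences shrank and that of Osm turned. The part of neutrophils in these values was not tested.

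**Figure D4:**
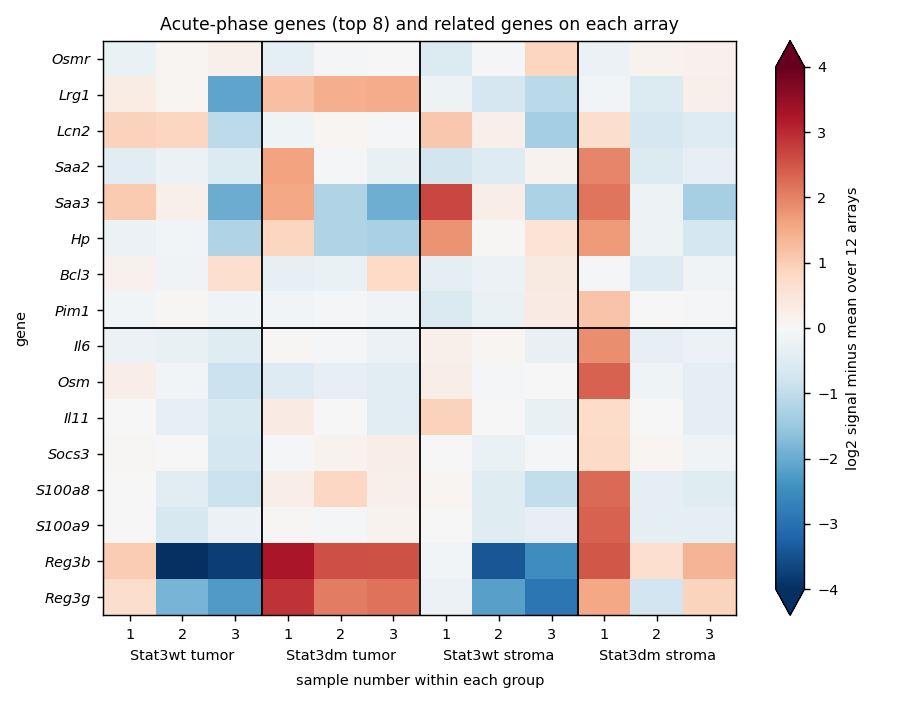
Log2 signal minus the mean over the 12 arrays (colour; the darkest shades also hold values beyond the scale) for the 8 genes, above the line, and for related genes, below it, by group and sample number. Stat3dm stroma 1 is high for Il6, Osm, S100a8 and S100a9, and Reg3b and Reg3g are high in all 3 Stat3dm tumors, with Reg3b at 11.55 to 12.26.

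The rest of the pathway was read from lists of related genes. A list of gp130 and related cytokines and receptors held 24 genes, not all of them parts of gp130 signalling. Of these, 20 were tested and none passed between genotypes in stroma, where their median difference was 0.23. Csf3r, the receptor of the neutrophil growth factor G-CSF, differed by 0.73 ± 0.22 (SE), Ptpn6, a phosphatase that dampens cytokine signals, by 0.75 ± 0.26, and Il10ra, the receptor chain of interleukin 10, by 0.72 ± 0.25, with adjusted p of 0.557 to 0.746. Between tissues, averaged over genotypes, 1 of the 20 passed, beside 2.55% of all genes. Il10ra was 1.10 ± 0.18 higher in stroma with an adjusted p of 0.0216. It was read at 5.53 to 6.84 in the stroma samples and 4.96 to 5.50 in the tumors, with no overlap. Left-out single arrays moved its adjusted p between 0.0128 and 0.0750, and 5 of 12 ended the call: Stat3wt tumor 1, Stat3wt stroma 3, Stat3dm tumor 2, Stat3dm tumor 3 and Stat3dm stroma 2.

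Among 38 other acute-phase proteins, 34 had a named probe set and 24 were tested. None passed between genotypes in stroma or tumor. In stroma Cfb, a complement protease of the alternative pathway, differed by 0.56 ± 0.23 (SE) and Orm2, an orosomucoid, by 0.61 ± 0.25, both with an adjusted p of 0.888. Orm1 differed by -0.62 ± 0.30, with 0.999. Between tissues averaged over genotypes, 2 of the 24 were called, beside 2.55% of all genes, and both were higher in stroma, as were 0.848% of all genes. Serping1, the C1 inhibitor, was 1.01 ± 0.22 higher with an adjusted p of 0.0367, and C4b, a complement component, 1.39 ± 0.33 higher with 0.0434. Serping1 ran from 7.87 to 8.94 in stroma and from 6.91 to 7.77 in tumor. Both calls ended without any of 8 arrays (Stat3wt tumor 1 and 3, Stat3wt stroma 2 and 3, Stat3dm tumor 2 and 3, Stat3dm stroma 2 and 3), with adjusted p of up to 0.112 and 0.129. Hepatocyte markers, checked because liver is the classical source of these proteins, had a mean of 4.16 to 5.33 on the 12 arrays over 11 genes, and the albumin gene Alb ran from 4.11 to 6.71. The 2 highest arrays were Stat3dm stroma 1, with a mean of 5.33, and Stat3dm tumor 1, with 4.93, and the other 10 ran from 4.16 to 4.69. Apoa1, the main protein of high-density lipoprotein, was at 7.99 and 7.04 on these 2 arrays and at 4.79 to 6.19 on the others. Not all genes of the list followed it. Alb was at 6.71 on Stat3dm stroma 1 but at 5.83 on Stat3dm tumor 1, below Stat3wt stroma 1 at 6.67. Tat was highest on Stat3dm tumor 3, at 6.16. Apob was highest on Stat3dm stroma 1 and Stat3dm tumor 1, at 7.45 and 6.42. The single-symbol probe set of Saa2 was brightest on the same 2 arrays, and the part of hepatocyte genes in its values was not tested. A probe set that carries both Saa1 and Saa2 was instead highest on Stat3dm tumor 2, at 7.998. It was at 7.64 on Stat3dm stroma 1 and 6.68 on Stat3dm tumor 1. Log2 RMA values have no true zero, so no marker could be called absent.

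Of 32 other STAT3 target genes, all tested, 2 were called between genotypes averaged over tissues, beside 0.283% of all genes. Both are antimicrobial lectins of the gut epithelium and were higher in Stat3dm. Reg3b was at 10.04, 4.91 and 5.23 in Stat3wt tumors and 12.26, 11.57 and 11.55 in Stat3dm tumors, and at 8.89, 5.60 and 6.53 against 11.48, 9.68 and 10.37 in stroma. It was thus higher in every Stat3dm sample than in any Stat3wt sample of the same tissue, as Lrg1 was in tumor. Its difference was 4.29 ± 0.76 (SE, adjusted p 0.0307), and that of Reg3g 2.92 ± 0.54 (0.0427). The calls were lost without any of 8 arrays for Reg3b and 9 for Reg3g, with adjusted p of up to 0.114 and 0.142. For both these were Stat3wt tumor 2 and 3, Stat3wt stroma 2 and 3, Stat3dm tumor 1 and 2 and Stat3dm stroma 1 and 3, and for Reg3g also Stat3dm tumor 3. In stroma alone the 32 genes had a median difference of 0.29 and none passed, Reg3b at 3.51 ± 1.07 with an adjusted p of 0.563.

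Between tissues averaged over genotypes, 2 of the 32 STAT3 targets passed, beside 2.55% of all genes. Muc1, a membrane mucin of epithelium, was 0.84 ± 0.18 (SE) lower in stroma with an adjusted p of 0.0342, and Batf, a transcription factor of lymphocytes, 0.64 ± 0.16 higher with 0.0486. The Muc1 call ended without any of 7 arrays (Stat3wt tumor 1 and 3, Stat3wt stroma 1 and 3, Stat3dm tumor 2 and 3, Stat3dm stroma 2) and the Batf call without any of 10, all but Stat3dm tumor 1 and Stat3dm stroma 1. Myc, with -0.62 ± 0.16, missed the threshold at 0.0541.

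Beside Bcl3, 11 genes of NF-kB subunits and NF-kB regulators were listed, not all of them partners of Bcl3. Of these, 10 were tested and 0 passed in any contrast. In stroma 9 of the 10 had a difference above 0 between genotypes, with a median of 0.57, while Bcl3 itself had -0.15. Nfkbia and Tnfaip3, inhibitors that NF-kB induces, differed by 0.69 ± 0.27 (SE) and 0.68 ± 0.26, with adjusted p of 0.869 and 0.863. Stat3dm stroma 1 was the highest of its group for both, with 9.55 against 8.56 and 8.59 for Nfkbia and 7.27 against 6.36 and 6.36 for Tnfaip3. Without it the differences were 0.37 and 0.38. For 5 of the 10 the Stat3dm stroma samples all lay above the Stat3wt ones, as they did for 5.13% of all genes. The 10 genes had a mean of 6.65 to 6.92 in Stat3dm stroma and 6.004 to 6.59 in Stat3wt stroma. The mean of 14 macrophage and monocyte markers was 6.24 to 6.57 in Stat3dm stroma and 5.39, 5.85 and 6.68 in Stat3wt stroma, where only sample number 3 was as high. Of the 13 tested, 12 also had a difference above 0, with a median of 0.34, and 0 passed. Ly6c2, a surface marker of inflammatory monocytes, differed by 1.63 ± 0.32 (SE) with an adjusted p of 0.229, and Ccr2, their chemokine receptor, by 0.73 ± 0.22 with 0.557. Averaged over both tissues, Ly6c2 was 1.21 ± 0.23 (SE) higher in Stat3dm with an adjusted p of 0.0440. It was the 1 marker called of the 13 tested, beside 0.283% of all genes. The Ly6c2 call was lost without any of 8 arrays, with adjusted p of up to 0.147. The part of macrophages and monocytes in the NF-kB values was not tested.

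Genes whose level followed a member most closely over the 12 arrays were ranked by Pearson's r as a description, and all points share the same arrays and their spread. Lrg1 was followed by Ak4 (0.920), Usp2 (0.905) and Sfn (0.881). Osmr was followed by Dennd5a (0.936), Svep1 (0.932) and Lifr (0.924), the last of which encodes the receptor chain for LIF. Saa3 was followed by Gfral (0.956), Zdbf2 (0.952) and Ccer2 (0.935), and Hp by Kiss1r (0.909), Cldn34b1 (0.909) and Grip2 (0.906). Lcn2 had Lrrc8d (0.884), Gucy1a2 (0.838) and Lrrtm1 (0.833). Bcl3 had Hnrnpdl and Capns1 (both 0.961) and Rnf141 (0.947), and Pim1 had Ip6k1 (0.905), Zfp984 (0.902) and Pfkfb3 (0.901). None of the 21 genes is a member.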

How the data were processed

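RNA from laser-captured, fixed tissue (50 ng) was amplified, labelled with biotin and hybridised to single-colour Affymetrix arrays, per the labels' protocols. The deposited values of 41345 probe sets are log2 signals that the authors made with RMA (robust multi-array average). The submitters' processing notes name Affymetrix Expression Console 1.3.1 for this. RMA corrects background, normalizes arrays and summarises probes, and can compress fold changes of dim genes. The deposited arrays did not share 1 distribution, with SDs of 1.60 to 1.91, and quantile normalization of them was an alternative. The platform annotation gave 23521 probe sets 1 symbol and 1814 several, and genes were named only from the former. Genes with a mean under 3.65 were left out. R 4.3.3 and limma 3.58.1 (lmFit, eBayes) fitted a mean for each of the 4 groups. 7 contrasts were tested with Benjamini-Hochberg adjustment over 16635 genes at 0.05, and adjusted p-values in the text are from this fit unless another is named. The code was tested on simulated data. The number of arrays limits the precision.

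The genes and the 11 lists beside them were chosen with earlier results of these data known. Named genes are the 8 members, the 3 genes of each pathway list with the smallest p in the genotype contrast in stroma and in the tissue contrast averaged over genotypes, the 3 genes most like each member, Stat3 and defining cell markers. Reg3b and Reg3g come under this rule, and others are marked as named after their values were seen. Cell type lists are given mainly by counts and levels. The promoter motifs were also chosen with matches of other motifs seen.

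Sample numbers were checked for pairing by the correlation of deviations from the group means over genes, with a minimum of 0.1 in every pair. Stat3wt and Stat3dm tumors (0.317, 0.150 and 0.692) and the Stat3dm tissues (0.123, 0.157 and 0.298) passed. Stat3wt tumor with Stat3dm stroma (0.191, 0.219 and 0.205) passed too. The Stat3wt tissues (0.439, -0.004 and 0.512) and the 2 genotypes in stroma (0.152, -0.040 and 0.113) did not pass, nor did Stat3wt stroma with Stat3dm tumor (0.439, 0.069 and 0.418). Groups of different genotype cannot share a mouse, so a pass does not show that tumor and stroma come from 1 mouse. The alternatives were other scalings, filters, probe set rules and variance models, blocks, and each array left out.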

Additional observations from a re-analysis of the deposited data

How the results depend on the processing

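Of 805 alternative values for the 33 differences reported of the 7 tested genes, 734 kept direction and side of the threshold, 13 newly passed it and 58 changed sign, none of them a called difference. The difference of Lrg1 between genotypes in tumor kept its sign in all of its alternatives, from 1.14 to 2.41. With 3 arrays a group, Saa3 differences inside the interval of -2.71 to 2.01 could not be resolved. Causes of the changes were not tested.

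As single arrays were left out, the counts of genes called ranged from 0 to 2 (genotypes in stroma), 0 to 7 (genotypes in tumor), 0 to 8 (Stat3wt tissues), 0 to 22 (Stat3dm tissues), 16 to 69 (genotype mean) and 0 to 1296 (tissue mean). The differences that changed sign ranged between genotypes in stroma from -0.82 to 0.41 for Lcn2, -1.32 to 0.70 for Saa3, -0.37 to 0.32 for Osmr and -0.29 to 0.062 for Bcl3. In tumor they ranged from -0.94 to 0.057 for Lcn2, -1.34 to 0.42 for Saa3, -0.74 to 0.33 for Hp, -0.53 to 0.051 for Bcl3 and -0.072 to 0.037 for Pim1. Between the Stat3wt tissues they ranged from -0.85 to 0.36 for Lrg1, -0.91 to 0.41 for Lcn2, -0.25 to 1.71 for Saa3, -0.29 to 0.40 for Osmr and -0.34 to 0.12 for Pim1. Between the Stat3dm tissues they ranged from -0.55 to 0.13 for Lcn2, -0.23 to 1.78 for Saa3 and -0.49 to 0.072 for Bcl3. Others kept their sign but moved by over 1.5 times. In stroma Hp ranged from -1.24 to -0.022, Lrg1 from 0.29 to 0.72 and Pim1 from 0.14 to 0.78, and in tumor Osmr from -0.28 to -0.027. Between the Stat3wt tissues Hp ranged from 0.80 to 1.67 and Bcl3 from -0.52 to -0.091, and between the Stat3dm tissues Hp from 0.096 to 1.52, Osmr from 0.055 to 0.31 and Pim1 from 0.078 to 0.68. In the tissue mean Hp ranged from 0.70 to 1.41 and Saa3 from 0.24 to 1.29. The interaction of Lrg1 ranged from -1.91 to -0.70. Lrg1 in the tissue mean ranged from -1.20 to -0.59, and passed only without Stat3wt tumor 3.

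Array weights, for which limma warned that the estimate stopped before convergence, called 164, 1579, 4, 3963, 727, 945 and 3834 genes in the contrasts genotype in stroma, genotype in tumor, interaction, Stat3wt tissues, Stat3dm tissues, genotype mean and tissue mean, against 0, 3, 0, 0, 0, 47 and 425. Lrg1 passed with 1.22 in tumor (adjusted p 0.0060), -0.91 and -1.56 between tissues in Stat3wt and Stat3dm, and 0.90 and -1.23 in the genotype and tissue means, and Saa3 with -1.89 in tumor (0.0470). Osmr turned to 0.046 in stroma and 0.16 in tumor, Pim1 to 0.021 in tumor and Saa3 to -0.58 between Stat3wt tissues.

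With the array spread as a covariate 13, 14, 114, 166 and 264 genes were called in genotype in stroma, genotype in tumor, Stat3dm tissues, genotype mean and tissue mean. Between genotypes in tumor Osmr turned to 0.12 and Bcl3 to 0.19. Bcl3 turned to 0.32 between Stat3wt tissues, and Saa3 to -1.82, -0.35 and -1.08 in Stat3wt tissues, Stat3dm tissues and the tissue mean. Quantile normalization of the deposited values called 1 gene in genotype in stroma, 33 in Stat3dm tissues and 90 in the genotype mean. Hp and Pim1 turned to 0.15 (both) between genotypes in tumor. Lrg1, Lcn2, Bcl3 and Pim1 turned to 0.26, 0.039, 0.025 and 0.20 between Stat3wt tissues. Median centring called 17 genes in the genotype mean and 168 in the tissue mean, and Osmr was -0.011 between Stat3wt tissues. Without the 2 widest arrays 21 and 0 genes were called in these means, and Saa3 was -0.078 between Stat3wt tissues and -0.025 in the tissue mean, and Bcl3 0.072 between Stat3dm tissues. The mean over probe sets gave Pim1 0.092 between genotypes in tumor and 0.10 between Stat3wt tissues. A filter on the dimmest 50% and an intensity trend each called 5 genes between genotypes in tumor.

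With the number as a fixed replicate block 28, 89, 304, 86, 292 and 2187 genes were called in the contrasts genotype in stroma, genotype in tumor, Stat3wt tissues, Stat3dm tissues, genotype mean and tissue mean. With genotype and number as a fixed block these were 138, 152 and 1876 in the Stat3wt tissues, Stat3dm tissues and tissue mean. With a random block they were 5, 62, 13 and 1648 in the Stat3wt tissues, Stat3dm tissues, genotype mean and tissue mean. The pairing changed no other call of a member than those of Hp (1.06), Saa3 (0.77) and Lrg1 (-0.81) in the tissue mean and that of Lrg1 in the Stat3dm tissues (-1.54).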

Other observations

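A further probe set carries both Saa1 and Saa2 in the annotation and so names neither gene. It gave log2 values of 7.37, 7.64 and 2.34 in Stat3wt tumors (sample numbers 1, 2 and 3), 4.10, 6.997 and 3.96 in Stat3wt stroma, 6.68, 7.998 and 1.87 in Stat3dm tumors and 7.64, 7.35 and 1.79 in Stat3dm stroma. Sample number 3 was the lowest array in all 4 groups, and the other arrays of a group differed from it by up to several log2 units. The values overlapped between genotypes in both tissues.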
